A study of Homo sapiens with 62 samples.

Results

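The 10 genes described here act in the G1 phase of the cell cycle, and they were followed in human cell lines with an extra copy of a chromosome arm and in clones without it. They were the D-type cyclins CCND1, CCND2 and CCND3, the kinases CDK4 and CDK6, the INK4 inhibitor genes CDKN2A and CDKN2B, the inhibitor gene CDKN1B, RB1 and the E-type cyclin gene CCNE1. They were chosen by name, and each of the 10 had a row in every count table, of 58735 genes in the tables of A2058, HCT116, AGS and MCF10A and of 48162 genes in those of A2780. None of the 10 lies on 1q, 7p or 8q, the arms that were removed.

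The 62 libraries fell into 16 groups from 5 lines. A2058, a melanoma line that carries gains of 1q, 7p and 8q, gave 4 WT (parental) libraries, 4 libraries from 2 clones that lost the 1q gain, 6 from 3 clones that lost the 7p gain and 4 from 2 clones that lost the 8q gain. HCT116, a colorectal cancer line with an 8q gain, gave 2 WT libraries and 4 from 2 clones without that gain. AGS, a gastric adenocarcinoma line with a 1q gain, gave 1 WT library, 2 libraries of TK+ cells, which carry a TK integrant and still hold the gain, and 5 libraries from 5 clones without the 1q gain. A2780, an ovarian cancer line with a 1q gain, gave 2 WT, 2 TK+ and 6 1q-loss libraries, the last from 3 clones. MCF10A, a non-tumour breast epithelial line with an extra 1q, gave 2 WT and 8 1q-loss libraries from 4 clones, and the same numbers from cells that also express hRASV12, the activated HRAS protein (hRas below).

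Every loss clone grew from a single cell after treatment with ReDACT, a family of genome-engineering methods that remove a chromosome arm. The labels name 3 versions. The CO version made all A2058 and HCT116 clones, AGS clone c11 and the MCF10A clones numbered c4. The NS version made the other AGS clones and all A2780 clones, and the TR version made the MCF10A clones c1 to c3. A clone can differ from its parental population in more than the targeted arm, and libraries of 1 clone are not independent samples of the loss, so the p-values below measure the spread between these libraries. The labels call the repeat libraries biological replicates without naming separate cultures. All cells had grown for 24 hours after plating when RNA was taken.

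D-type cyclins bind CDK4 and CDK6, and the complexes phosphorylate the retinoblastoma protein encoded by RB1. The phosphorylated protein releases E2F transcription factors, which switch on genes for DNA replication, CCNE1 among them. The INK4 proteins p16 (from CDKN2A) and p15 (from CDKN2B) bind CDK4 and CDK6 and keep cyclins off them, whereas p27 (from CDKN1B) binds cyclin-CDK complexes and restrains cyclin E with CDK2. CDKN2A also encodes ARF from another first exon, a protein that stabilises p53. Loss of the CDKN2A and CDKN2B locus and gain of CCND1 are among the common lesions of human tumours, and the locus is deleted in MCF10A cells.

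The D-type cyclin genes lie, on GRCh38, at chr11:69641087-69654474 (CCND1, 11q, plus strand), chr12:4273772-4305350 (CCND2, 12p, plus) and chr6:41934933-42050357 (CCND3, 6p, minus). CDK4 is at chr12:57747727-57756013 (12q, minus) and CDK6 at chr7:92604921-92836594 (7q, minus). CDKN2A at chr9:21967753-21995301 and CDKN2B at chr9:22002903-22009363 are neighbours on 9p, both on the minus strand, and CDKN1B is at chr12:12715058-12722371 (12p, plus). RB1 is at chr13:48303726-48599436 (13q, plus) and CCNE1 at chr19:29811898-29824308 (19q, plus). Several members overlap genes on the other strand, such as CCND1 with LTO1 (197 to 817 counts), CDK4 with TSPAN31 (144 to 882 counts) and RB1 with LPAR6 (0 to 299 counts). Whether counting used the strand is not given in the sources used here, so reads from such pairs may not be told apart. On GRCh38 the gene AC008012.1 (0 to 2 counts) also overlaps CCND2 on its own strand, over all 31579 of its bases. The A2780 annotation lists no such overlap. How reads shared by overlapping genes were counted is not given, and what this does to CCND2 levels was not tested.

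Upstream sequences are shown for 3 members, because CDKN2A and CDKN2B rose together in 2 lines and because CDK4 was not called in any comparison, including 2 comparisons of A2058 in which MYC was called lower. The 250 bases before the annotated start were taken from RefSeq on GRCh38.p14, where 8 of the 10 members had at least 1 window and 12 windows in all. Both strands were searched, capitals mark the matches, and positions count back from the start. The motifs CACGTG (the core E-box, which MYC with its partner MAX can bind) and GGGCGG (the GC box, bound by SP1-type factors) were chosen with values of these data known. The CDK4 window, chr12:57752311-57752560 on the minus strand, holds 3 CACGTG matches, at -216 to -211, -196 to -191 and -101 to -96. This window lies inside the CDK4 gene as the count tables place it. Of 35116 RefSeq windows of this length, 6.34% hold CACGTG at least once and 0.0797%, which is 28 windows, hold it at least 3 times. No other member window holds it.
CDK4, capitals CACGTG: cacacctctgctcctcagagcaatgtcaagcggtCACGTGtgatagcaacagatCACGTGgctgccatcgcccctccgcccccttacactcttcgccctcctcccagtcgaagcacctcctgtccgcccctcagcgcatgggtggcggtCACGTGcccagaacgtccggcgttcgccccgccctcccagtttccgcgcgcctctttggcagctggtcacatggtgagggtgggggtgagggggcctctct

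The 9p21 windows lie on the minus strand at chr9:21974858-21975107 (the start of the p16 transcript), chr9:21995325-21995574 (the start of the ARF transcript) and chr9:22009306-22009555 (CDKN2B). As the count tables place the genes, the p16 window lies inside CDKN2A and the CDKN2B window partly inside CDKN2B. GGGCGG, or CCGCCC on the other strand, matches once in the p16 window, 2 times in the CDKN2B window and not in the ARF window, against 42.6% of all windows with at least 1 match. All 3 windows are rich in CG steps, with 20, 24 and 18 against a median of 11.
CDKN2A, p16 start, capitals GGGCGG: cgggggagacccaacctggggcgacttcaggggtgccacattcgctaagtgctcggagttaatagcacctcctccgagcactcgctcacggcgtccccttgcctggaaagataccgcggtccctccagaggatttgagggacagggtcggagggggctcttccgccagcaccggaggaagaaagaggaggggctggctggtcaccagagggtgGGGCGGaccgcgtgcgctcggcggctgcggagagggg
CDKN2A, ARF start, no match: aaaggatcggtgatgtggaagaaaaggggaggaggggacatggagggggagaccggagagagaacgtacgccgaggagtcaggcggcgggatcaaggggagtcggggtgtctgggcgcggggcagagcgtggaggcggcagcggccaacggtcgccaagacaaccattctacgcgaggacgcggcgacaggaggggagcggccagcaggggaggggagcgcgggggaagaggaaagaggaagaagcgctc
CDKN2B, capitals GGGCGG or CCGCCC: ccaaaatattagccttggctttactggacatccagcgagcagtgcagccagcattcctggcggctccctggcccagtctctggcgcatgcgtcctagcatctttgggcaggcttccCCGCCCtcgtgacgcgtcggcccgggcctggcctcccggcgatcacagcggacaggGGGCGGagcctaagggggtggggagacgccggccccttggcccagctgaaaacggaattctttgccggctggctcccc
The E2F motifs TTTCGCGC, TTTGGCGC and TTTCCCGC and the CRE motif TGACGTNA match in none of the 12 member windows (0.439%, 0.55%, 1.39% and 2.67% of all windows). The AP-1 motif TGANTCA (6.57% of all windows) matches only in an RB1 window at chr13:48476200-48476449, which lies inside the RB1 gene as the count tables place it.

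Libraries held 15042068 to 30984036 counts, so that 3 counts corresponded to 0.0968 to 0.199 CPM, the count of a gene scaled to a common library size. Library sizes for CPM were adjusted by TMM, edgeR's correction for composition. The targeted arm was lower in every clone, by a median over its genes of -0.30 to -0.66 on the log2 scale relative to the other autosomal arms. Of markers of each line's tissue, 6 of 6 melanocyte genes in A2058 and 5 of 5 basal genes in MCF10A reached 1 CPM in every library that keeps the gain. HCT116 met this for 1 of 5 colorectal genes (CDX2) and AGS for 1 of 5 gastric genes (TFF1), although both met it for 4 of 4 general epithelial genes. Lists of other tissues did better there. AGS met it for 3 of 5 colorectal and 3 of 5 basal genes, and HCT116 for 2 of 4 ovarian carcinoma and 2 of 5 basal genes. A2780 met it for 0 of 4 ovarian carcinoma genes, with EMX2 and the Wilms tumour gene WT1 at 0 counts, and for 2 of 4 general epithelial genes. HCT116 libraries also differed in the balance of long and short transcripts, a property given with the HCT116 values of the kinases. Fewer cells of a kind and less RNA per cell cannot be told apart in these bulk libraries.

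The 5 lines differed most in CCND2, CDK6 and the INK4 genes. In libraries that keep the gain, CCND2 averaged 1345 CPM in A2780 (886 to 1738 over 4 libraries), 3.80 CPM in MCF10A, and had at most 1 count per library in the other 3 lines. CDK6 averaged 420 CPM in AGS, 267 in MCF10A, 197 in A2058, 10.4 in HCT116 and 0.476 in A2780, and no neighbours in that order overlapped. CDK4 ran from 411 CPM in HCT116 through 154 in A2780, 144 in A2058 and 88.0 in MCF10A to 50.4 in AGS, where only A2780 and A2058 overlapped. The line with the most CDK6 thus had the least CDK4. A2780 tables carry another annotation than the other lines, which bears on its levels here and below. CCND2 is a case, since AC008012.1 overlaps it only in the annotation of the other lines.

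**Figure D1:**
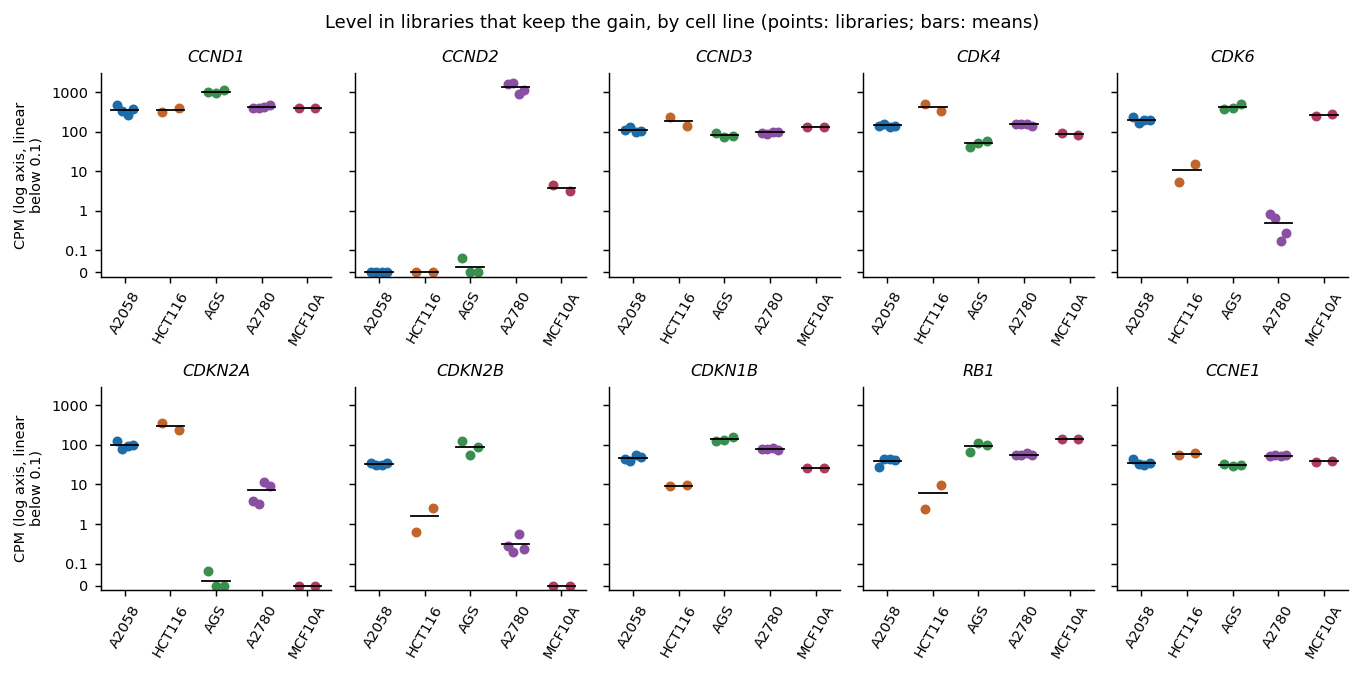
Level of each of the 10 genes in libraries that keep the gain (WT and TK+), as CPM on a log axis that is linear below 0.1, by cell line. Points are libraries and bars are means. CCND2 stands above 880 CPM only in A2780, CDK6 below 1 CPM only in A2780, and CDKN2A and CDKN2B at 0 in MCF10A.

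CCND1 averaged 1016 CPM in AGS (943 to 1127 over 3 libraries), above every library of the other lines. A2780, MCF10A, A2058 and HCT116 followed at 424, 400, 356 and 355 CPM, and their ranges overlapped from each to the next. CCND3 was the most even of the D-type cyclins, with means of 186 CPM in HCT116, 132 in MCF10A, 110 in A2058, 95.4 in A2780 and 81.7 in AGS. Only HCT116 stood clear of its neighbour, at 136 and 237 CPM against 130 and 133 in MCF10A. RB1 was highest in MCF10A (140 CPM), followed by AGS at 92.0, A2780 at 56.4, A2058 at 39.8 and HCT116 at 5.95, with no overlap between neighbours. CDKN1B was highest in AGS (139 CPM) and lowest in HCT116 (9.26), with A2780 at 78.7, A2058 at 47.0 and MCF10A at 26.0, again with no overlap. CCNE1 varied least, from 60.3 CPM in HCT116 and 53.2 in A2780 to 38.6, 35.8 and 30.9 in MCF10A, A2058 and AGS, where A2058 overlapped each of the other two, which did not overlap each other.

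CDKN2A was highest in HCT116 (297 CPM), followed by A2058 at 99.8 and A2780 at 7.08, and AGS libraries held 0 or 1 count. CDKN2B was highest in AGS (89.3 CPM), followed by A2058 at 32.4, HCT116 at 1.57 and A2780 at 0.317. Per kb, the ratio of CDKN2A to CDKN2B was 92.2 and 510 in HCT116, 43.7 to 124 in A2780, 2.44 to 3.45 in A2058 and at most 0.000479 in AGS. The A2780 ratio is raised by its annotation, which gives CDKN2A 1283 bases and CDKN2B 3911, against 4329 and 4058 in the other lines. In all 20 MCF10A libraries both genes had 0 counts. Of their neighbours on 9p, MTAP had 0 to 13 counts in these libraries, DMRTA1 13 to 37 counts and KLHL9 29.5 and 24.9 CPM in WT.

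Genes were set against each other only per kilobase of the length given in the tables (CPM per kb). The lengths given for A2780 are shorter, with CDK4 at 2076 bases against 3168 in the other lines and CCND3 at 2394 against 5802. This raises A2780 values per kb, which are not on the same scale as those of the other lines. CCND1 led in AGS (210 CPM per kb), A2058 (73.7) and MCF10A (82.7), CDK4 in HCT116 (130) and CCND2 in A2780 (208). The 3 D-type cyclins summed to 346 CPM per kb in A2780 (276 to 398), 225 in AGS (208 to 247), and 92.6, 106 and 106 in A2058, HCT116 and MCF10A. The sum of CDK4 and CDK6 spanned a narrower range, from 49.5 CPM per kb in MCF10A and 50.2 in AGS through 61.5 in A2058 to 130 in HCT116. A2780 stood at 74.1 with its shorter CDK4 length, so its place among the lines is not settled. Within that sum, the ratio of CDK6 to CDK4 per kb was 1.89 to 2.46 in AGS, 0.703 to 0.869 in MCF10A, 0.262 to 0.423 in A2058, 0.00279 to 0.0121 in HCT116 and 0.000201 to 0.000927 in A2780. AGS was therefore the only line in which CDK6 exceeded CDK4 per kb in every library that keeps the gain.

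Each loss group was compared with the libraries of its line that keep the gain, to ask which genes differ once the arm is gone. Genes were tested with edgeR's quasi-likelihood test, and a gene was called at a Benjamini-Hochberg adjusted p under 0.05 over all genes tested. In 1q loss of A2058 6 of 9 tested members were called, where 49.6% of all genes were called (4 higher and 2 lower, against 25.3% and 24.3% of genes). With 1q loss in A2780 3 of 10 were called against 11.8% of genes (2 higher and 1 lower, against 5.95% and 5.88%). AGS with 1q loss had 1 of 8 called, lower, against 7.55% (4.17% lower). MCF10A with 1q loss had 1 of 8 called, lower, against 2.04% (1.74% lower), and with hRas 1 of 8, lower, against 0.214% (0.189% lower). No member was called in 7p loss of A2058 (0.908% of genes called), 8q loss of A2058 (2.03%) or 8q loss of HCT116 (0.14%). In those 3 comparisons, 0, 1 and 0 of 9 members had an unadjusted p under 0.05.

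DESeq2, another count model, called 7, 0, 1 and 0 of 9 members in 1q, 7p and 8q loss of A2058 and in 8q loss of HCT116, against 36%, 2.7%, 3.74% and 0.663% of all genes. It called 2 of 8 members in AGS, 3 of 10 in A2780, 1 of 8 in MCF10A and 0 of 8 in MCF10A with hRas, against 11.6%, 13.7%, 4.03% and 2.54% of genes. In the last of these CCND2, the member that edgeR called, had no adjusted p from DESeq2. The 3 losses in A2058 share the WT libraries. Over the 8 losses, CDKN2B was above 0 in all 6 in which it was tested and CDK4 below 0 in 7 of 8, while CCND3, RB1 and CCNE1 went both ways.

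**Figure D2:**
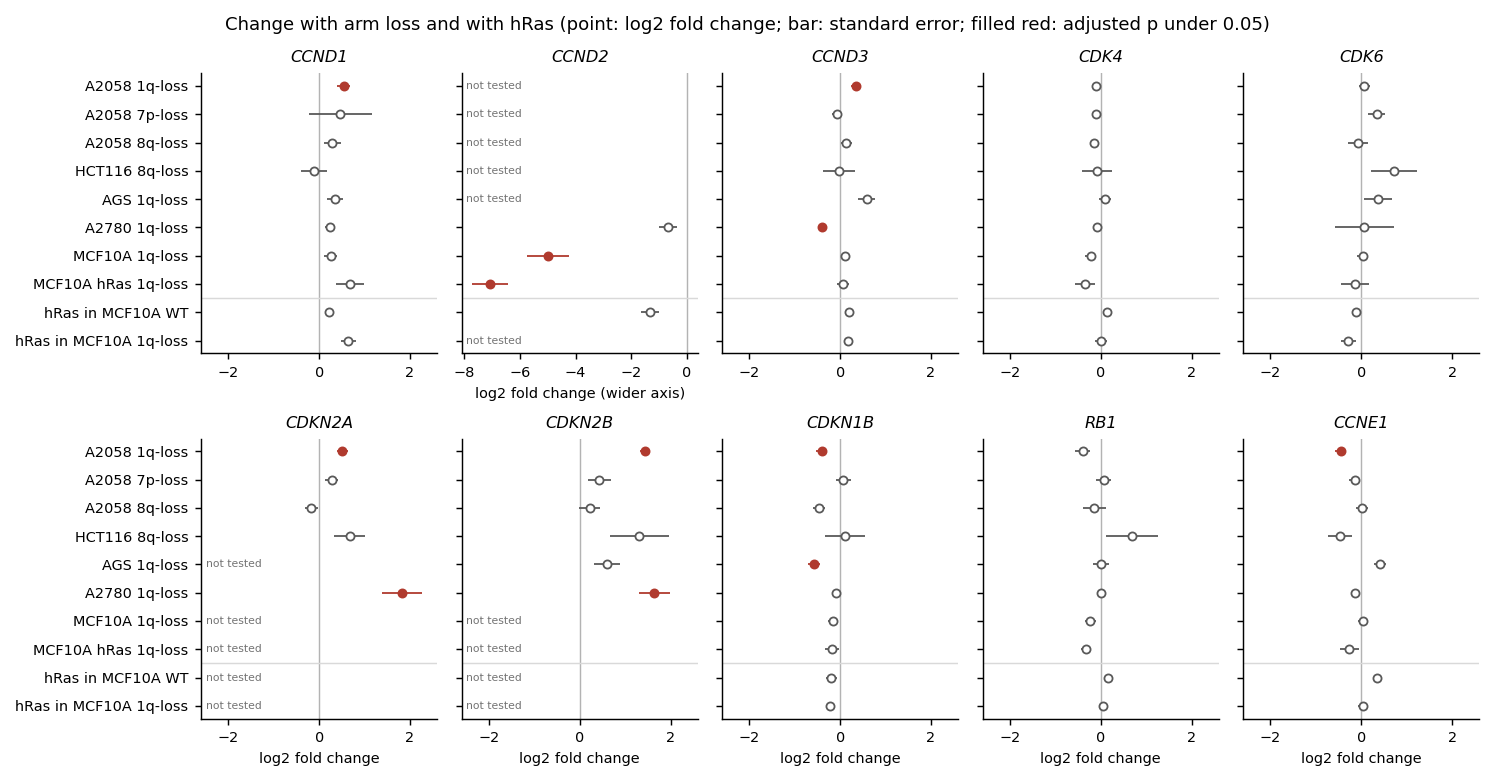
Log2 fold change of each of the 10 genes in the 8 losses and in the 2 comparisons with hRas (below the line in each panel). Points are edgeR estimates, bars are standard errors, filled red points have an adjusted p under 0.05, and the CCND2 panel has a wider axis. CDKN2B lies to the right of 0 in each loss tested, and CDK4 and CDK6 have no filled point.

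CCND1, the cyclin most often gained in tumours, rose in A2058 with 1q loss. WT replicates 1 to 4 stood at 268, 368, 458 and 330 CPM, and the loss clones at 495 and 562 CPM (c1) and 488 and 526 CPM (c2). Every loss library was above every WT library, by a log2 fold change of 0.54 (SE 0.14; edgeR adjusted p = 0.00759). Against WT replicates 3 and 4 alone the adjusted p was 0.0524. In no other loss was CCND1 called.

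The 7p-loss clones of A2058 went different ways in CCND1. Clone c1 stood at 1330 and 862 CPM, c2 at 325 and 216 CPM, and c3 at 150 and 66.0 CPM, on both sides of the 268 to 458 CPM of WT. On the log2 scale c1 differed from the WT mean by 1.62, c2 by -0.40 and c3 by -1.81, while arm 11q, which holds CCND1, shifted by -0.04, -0.01 and -0.01 in those clones. Because the clones went opposite ways, the group's log2 fold change was 0.46 with an SE of 0.69 (edgeR adjusted p = 0.814). With 8q loss CCND1 stood at 462, 322, 549 and 406 CPM, overlapping WT (log2 fold change 0.29, SE 0.19, edgeR adjusted p = 0.563).

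**Figure D3:**
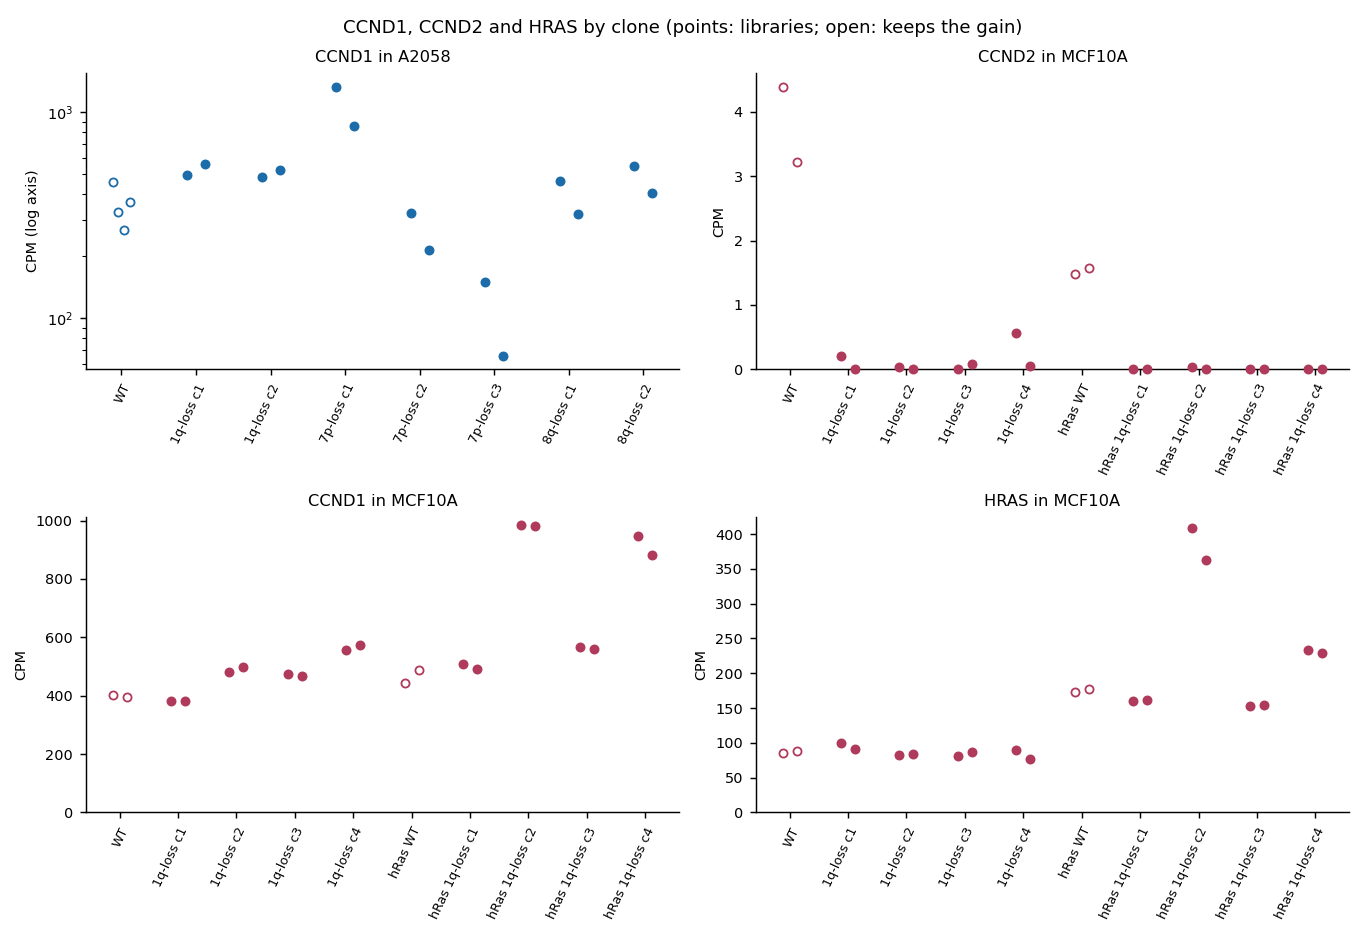
Levels by clone in CPM, with 1 point per library, for CCND1 in A2058 on a log axis and for CCND2, CCND1 and HRAS in MCF10A on linear axes from 0. Open points keep the gain and filled points are loss clones. The 7p-loss clones c1 and c3 of A2058 lie on opposite sides of WT in CCND1, MCF10A loss clones lie near 0 in CCND2, and hRas 1q-loss clones c2 and c4 are highest in both CCND1 and HRAS.

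In AGS, CCND1 was 1127 CPM in WT and 980 and 943 CPM in TK+, against 1580 (c1), 1160 (c4), 1348 (c6), 1362 (c7) and 988 CPM (c11). Clone c11 overlapped the controls and the other 4 clones were above them (log2 fold change 0.35, SE 0.17, edgeR adjusted p = 0.221). Arm 11q was itself shifted in c1 and c4, by 0.42 and 0.57, and by 0.04 to 0.06 in the other 3 clones, and its part in the CCND1 values was not tested. In A2780 the loss libraries ran from 435 to 609 CPM, with c2 highest at 561 and 609, against 397 to 481 CPM in controls (log2 fold change 0.24, SE 0.11, edgeR adjusted p = 0.182). In HCT116 they stood at 232 and 274 CPM (c1) and 402 and 403 CPM (c2), around the 319 and 392 CPM of WT (log2 fold change -0.12, SE 0.29, edgeR adjusted p = 1.00).

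MCF10A with 1q loss had CCND1 at 381 to 573 CPM (median 477) over 8 libraries, against 403 and 397 CPM in WT (log2 fold change 0.25, SE 0.14, edgeR adjusted p = 0.533). Clone c1 was at or below WT and the other 3 clones above it. With hRas the loss libraries ran from 491 to 984 CPM (median 725) against 442 and 487 CPM, all above hRas WT but not called (log2 fold change 0.68, SE 0.31, edgeR adjusted p = 0.356). Clones c2 and c4 differed by 1.08 and 0.98 from hRas WT, and c1 and c3 by 0.11 and 0.28, with 11q shifted by -0.01 to 0.03 in all 4.

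CCND2 fell in MCF10A with 1q loss, from a low start. WT libraries held 130 and 72 counts (4.38 and 3.22 CPM), and the 8 loss libraries held 0 to 12 counts. Clone c4 replicate 1, with 12 counts (0.559 CPM), was the highest of them, and 3 of the 8 had no count. Summed over libraries, 202 counts in WT against 20 in the loss clones gave a level 33.9-fold higher in WT (95% exact interval 21.4 to 56.7, counting error only). The edgeR log2 fold change was -4.98 (SE 0.76, adjusted p = 0.00328), with all 4 clones lower, and without WT replicate 1 the adjusted p was 0.0959.

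With hRas, CCND2 fell again with 1q loss, where the WT libraries held 32 and 34 counts (1.48 and 1.57 CPM). The 8 loss libraries held 1 count between them, in clone c2 replicate 1. The ratio of summed counts, 66 against 1, was 271.9 with a 95% exact interval of 47.1 to 1.09e+04. The edgeR log2 fold change was -7.06 (SE 0.64, adjusted p = 0.00228). This call rested on few libraries: the adjusted p was 0.0612 and 0.0774 without hRas WT replicate 1 or 2, 0.114 without c2 replicate 1, 0.103 without clone c2 and 0.238 with the libraries of each clone summed, and DESeq2 gave it no adjusted p. Both MCF10A comparisons stand on WT libraries with well under 10 CPM, counted with AC008012.1 over the whole of CCND2.

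CCND2 had high counts only in A2780, whose annotation has no AC008012.1 over it, and there its controls differed from each other. WT libraries stood at 1604 and 1738 CPM and TK+ libraries at 886 and 1151 CPM. Loss clones stood at 389 and 445 CPM (c2), 849 and 1159 CPM (c5) and 1053 and 1154 CPM (c6). Clones c5 and c6 lay around the TK+ values, and c2 lay below every control (log2 fold change -0.68 over all, SE 0.32, edgeR adjusted p = 0.208). A2058 and HCT116 libraries had no CCND2 count in any group, and AGS libraries had at most 3 counts.

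CCND3 was called in opposite directions in 2 lines. In A2058 it rose with 1q loss, from 97.1, 102, 107 and 132 CPM in WT to 142 and 155 CPM (c1) and 118 and 144 CPM (c2), where c2 replicate 1 overlapped WT (log2 fold change 0.35, SE 0.11, edgeR adjusted p = 0.0222). This did not hold when libraries were left out: the adjusted p was 0.068, 0.0639 and 0.0536 without WT replicate 1, 2 or 3, 0.0637 without c1 replicate 2 and 0.135 without clone c1. It was 0.0506 with summed clones and 0.209 against WT replicates 3 and 4 alone. In A2780 CCND3 fell with 1q loss, from 89.2 to 100 CPM in the 4 controls to 57.3 to 86.8 CPM in the 6 loss libraries, with no overlap (log2 fold change -0.41, SE 0.09, edgeR adjusted p = 0.0188).

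The A2780 value of CCND3 was also near the threshold. Its adjusted p was 0.0501 with summed clones, 0.147 against WT alone, 0.0805 against TK+ alone, 0.0536 without WT replicate 1, 0.0602 and 0.0572 without TK+ replicate 1 or 2, and 0.0555 without clone c2. In AGS, CCND3 stood at 74.8, 78.4 and 91.9 CPM in controls and at 164 (c1), 131 (c4), 114 (c6), 110 (c7) and 88.5 CPM (c11) in the loss clones. Only c11, the clone made by the CO version, lay within the controls (log2 fold change 0.58, SE 0.19, edgeR adjusted p = 0.0909), and without it the adjusted p was 0.0332. DESeq2 gave 0.0441 over all 5 clones. In the other 5 losses CCND3 overlapped its controls, with estimates of -0.08 and 0.13 for 7p and 8q loss of A2058, -0.03 in HCT116 and 0.10 and 0.06 in MCF10A without and with hRas.

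CDK4 and CDK6 were called in no loss. Neither had an unadjusted p under 0.05 in any of the 8 edgeR comparisons, and DESeq2 called neither. CDK4 estimates ran from -0.35 in MCF10A with hRas to 0.09 in AGS, and 7 of 8 were below 0. In A2058, CDK4 was 133 to 160 CPM in WT, 132 to 137 with 1q loss, 125 to 145 with 7p loss and 111 to 143 with 8q loss. The 8q-loss difference was -0.15 (SE 0.09, edgeR adjusted p = 0.537), beside MYC, which lies on 8q and fell from a mean of 39.6 to 21.98 CPM (log2 fold change -0.85, edgeR adjusted p = 0.00275). In 1q loss of A2058 MYC also fell, by 0.48 on the log2 scale (edgeR adjusted p = 0.00148), beside a CDK4 difference of -0.11 (SE 0.06, adjusted p = 0.185). With 7p loss MYC stood at 84.4 and 91.5 CPM in c1 and at 20.9 to 26.1 CPM in c2 and c3, while CDK4 in all 3 clones stayed within 125 to 145 CPM. The window upstream of CDK4 with its 3 CACGTG matches is shown above, and no relation between the 2 genes was tested.

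In MCF10A, CDK4 differed by clone. With 1q loss it was 85.1 and 88.3 CPM in c1, 71.9 and 71.6 in c2, 80.6 and 81.2 in c3 and 67.3 and 61.1 in c4, against 91.5 and 84.6 CPM in WT (log2 fold change -0.22, SE 0.12, edgeR adjusted p = 0.524). With hRas the order was alike, at 88.2 and 94.9, 70.3 and 71.0, 88.4 and 91.6, and 52.9 and 49.2 CPM for c1 to c4, against 103 and 89.9 CPM (log2 fold change -0.35, SE 0.23, edgeR adjusted p = 0.478). In A2780 and AGS, CDK4 overlapped the controls with estimates of -0.08 and 0.09. Clone c4 of MCF10A, made by the CO version, was lowest in both sets, and libraries of 1 clone differed little. MYC in the hRas clones c1 to c4 was 485 and 457, 276 and 272, 437 and 430, and 307 and 314 CPM, against 446 and 418 CPM in hRas WT. There c2 and c4 were lowest in MYC and in CDK4. Without hRas MYC was lowest in c2 (356 and 348 CPM), and c4 stood at 497 and 426 CPM against 442 and 451 CPM in WT. A relation of MYC and CDK4 was not tested here either.

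CDK6 differed between AGS clones. Clones c1 and c4 stood at 699 and 853 CPM, above the 383 to 493 CPM of controls, whereas c6, c7 and c11 stood at 331, 371 and 435 CPM (log2 fold change 0.36, SE 0.31, edgeR adjusted p = 0.502). In A2058 7p loss, which removes the other arm of chromosome 7, CDK6 on 7q stood at 342 and 298 CPM in c1, 238 and 219 in c2 and 228 and 162 in c3, against 162 to 230 CPM in WT (log2 fold change 0.33, SE 0.18, edgeR adjusted p = 0.471). Arm 7q shifted by 0.03 to 0.06 in these clones. MCF10A with 1q loss had CDK6 at 243 to 329 CPM against 249 and 284 CPM in WT, and in A2780 it stayed at 2 to 28 counts per loss library.

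In HCT116, CDK6 was 5.28 and 15.5 CPM in WT and 9.13, 15.1, 26.8 and 17.2 CPM in the 8q-loss libraries (log2 fold change 0.71, SE 0.50, edgeR adjusted p = 1.00). RB1 moved alike, from 2.43 and 9.47 CPM in WT to 5.34, 6.70, 13.02 and 13.27 CPM. The libraries also differed in the median log2 deviation of genes of at least 6000 bases less that of genes of at most 2000 bases. That measure was -0.40 and 0.10 in WT, -0.55 and -0.25 in clone c1 and 0.56 and 0.51 in clone c2. Both CDK6 and RB1 have long transcripts and were lowest in WT replicate 1 and highest in a c2 library. CDK4 ran the other way, at 489 and 332 CPM in WT, 459 and 536 CPM in c1 and 276 and 271 CPM in c2 (log2 fold change -0.09, SE 0.33, edgeR adjusted p = 1.00). CCND3 was likewise higher in WT replicate 1 and c1 replicate 1 (237 and 280 CPM) than in the other 4 libraries (132 to 169 CPM), and CCND1 was lowest in c1. The part of this library property in any HCT116 value, CDKN2A and the other members below included, was not tested. In the other 4 lines the measure stayed between -0.17 and 0.27.

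The INK4 genes CDKN2A and CDKN2B rose together in 1q loss of A2058 and of A2780. In A2058, CDKN2A was 94.4, 99.8, 125 and 79.6 CPM in WT replicates 1 to 4 and 150, 140, 140 and 138 CPM in the 1q-loss libraries, all above WT (log2 fold change 0.51, SE 0.12, edgeR adjusted p = 0.0042). CDKN2B was 30.3, 34.5, 34.1 and 30.6 CPM in WT and 100, 73.8, 86.3 and 89.0 CPM with 1q loss (log2 fold change 1.43, SE 0.10, edgeR adjusted p = 1.27e-06). CDKN2B was called under each of 19 alternatives run for it, and CDKN2A under 18, the exception being WT replicates 3 and 4 alone (adjusted p = 0.0543). Arm 9p shifted by 0.06 and 0.09 in these clones, less than either gene, and of its neighbours MTAP (0.21, edgeR adjusted p = 0.0301) and DMRTA1 (0.83, adjusted p = 0.00314) rose. KLHL9 was lower without being called, at a mean of 54.4 against 62.7 CPM (-0.21, edgeR adjusted p = 0.0535), and CDKN2B-AS1 had 0 counts. MTAP kept its call in 9 of 19 alternatives and DMRTA1 in 19. CDKN2B differed by 1.41 in c1 and 1.44 in c2, and CDKN2A by 0.56 and 0.50.

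With 7p loss in A2058, CDKN2B was 30.2 and 26.8 CPM in c1, 75.1 and 51.1 in c2 and 40.6 and 37.4 in c3 (log2 fold change 0.43, SE 0.26, edgeR adjusted p = 0.506). Only c2 and c3 exceeded WT, so the 3 clones did not move together. With 8q loss it was 56.1 and 40.4 CPM in c1 and 30.5 and 23.5 in c2 (log2 fold change 0.21, SE 0.22, edgeR adjusted p = 0.752). CDKN2A overlapped WT in both, at 97.8 to 148 CPM and 74.7 to 101 CPM.

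**Figure D4:**
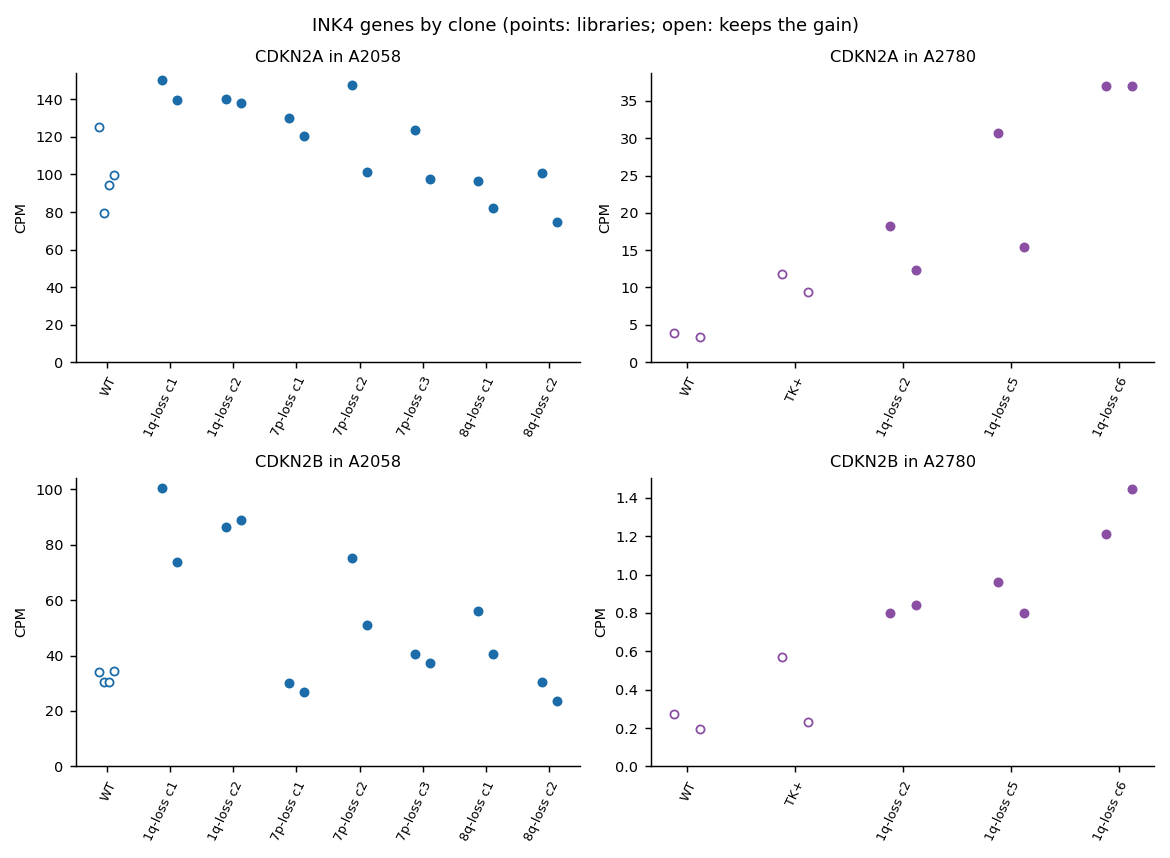
CDKN2A and CDKN2B by clone in A2058 and A2780, in CPM on linear axes from 0, with 1 point per library. Open points keep the gain and filled points are loss clones. All 4 1q-loss libraries of A2058 and all 6 of A2780 lie above the libraries of their line that keep the gain, and TK+ libraries of A2780 lie above WT for CDKN2A.

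In A2780, CDKN2A was 3.88 and 3.30 CPM in WT and 11.8 and 9.35 CPM in TK+. The 1q-loss clones stood at 18.2 and 12.4 CPM (c2), 30.7 and 15.4 CPM (c5) and 37.0 and 37.0 CPM (c6), all above the controls (log2 fold change 1.82, SE 0.44, edgeR adjusted p = 0.0231). TK+ cells, which still hold the gain, were already above WT, and against TK+ alone the log2 fold change was 1.25 with an adjusted p of 0.168. The adjusted p was 0.0729 with summed clones, 0.0725 and 0.0663 without WT replicate 1 or 2, and 0.0666 without clone c6. CDKN2B was far lower, at 0.271 and 0.197 CPM in WT, 0.573 and 0.229 in TK+ and 0.801 to 1.44 CPM in the loss clones, which held 17 to 35 counts (log2 fold change 1.64, SE 0.34, edgeR adjusted p = 0.0117). Its adjusted p was 0.0593 with summed clones and 0.139 against TK+ alone. Arm 9p shifted by 0.01 to 0.02 in these clones.

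In AGS, where CDKN2A held 0 to 2 counts, CDKN2B was 54.3, 87.4 and 126 CPM in controls and 175 (c1), 163 (c4), 116 (c6), 128 (c7) and 91.4 CPM (c11) in loss clones. Every clone was above the control mean, c6 and c11 overlapped the controls, and the gene was not called (log2 fold change 0.60, SE 0.29, edgeR adjusted p = 0.223). In HCT116, CDKN2B was 0.643 and 2.49 CPM in WT and 6.77, 3.23, 2.73 and 2.79 CPM with 8q loss, all above WT but not called (log2 fold change 1.31, SE 0.65, edgeR adjusted p = 0.947). CDKN2A there was 350 and 245 CPM in WT against 676, 548, 323 and 343 CPM (log2 fold change 0.67, SE 0.34, edgeR adjusted p = 0.967). CDKN2A and CDKN2B overlap the antisense gene CDKN2B-AS1, which held 0 to 34 counts. Gene counts cannot separate p16 from ARF transcripts.

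CDKN1B, which encodes p27, fell with 1q loss in AGS and A2058. AGS stood at 155 CPM in WT and 124 and 137 CPM in TK+, against 80.8 (c1), 82.3 (c4), 90.5 (c6), 99.5 (c7) and 109 CPM (c11), with every clone below every control (log2 fold change -0.58, SE 0.13, edgeR adjusted p = 0.0298). Of 15 alternatives, 9 lost this call, with adjusted p of 0.347 against WT alone and 0.14 against TK+ alone, which is also the fit without WT. The others were 0.0654 and 0.112 without TK+ c1 or c2, and 0.0564, 0.0504, 0.0592 and 0.052 without c1, c4, c6 or c7. The log2 fold change kept its sign in all 15.

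In A2058, CDKN1B was 54.8, 49.0, 44.2 and 40.1 CPM in WT replicates 1 to 4 and 41.0, 33.3, 38.5 and 29.5 CPM with 1q loss (log2 fold change -0.41, SE 0.12, edgeR adjusted p = 0.0196). Loss clone c1 replicate 1 overlapped the lowest WT library. The adjusted p was 0.0527 without WT replicate 1 or without WT replicate 2, 0.0719 without clone c2 and 0.196 against WT replicates 3 and 4 alone. With 8q loss CDKN1B was 30.6 and 28.9 CPM in c1 and 39.1 and 38.0 CPM in c2, all below WT, without being called (log2 fold change -0.46, SE 0.13, edgeR adjusted p = 0.139). DESeq2 gave an adjusted p of 0.0432 there, and without clone c2 edgeR gave 0.0296. Loss of 7p left it at 38.2 to 67.2 CPM, around WT. In A2780 and MCF10A the estimates were -0.10 and -0.16, and in MCF10A with hRas -0.18, all with overlapping groups. In HCT116 CDKN1B stood at 8.96 and 9.55 CPM in WT and at 4.37 to 13.1 CPM in the 4 8q-loss libraries, around WT (log2 fold change 0.11, SE 0.44, edgeR adjusted p = 1.00).

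RB1 lies on 13q and was not called in any loss, with estimates from -0.40 to 0.69. Its values moved in several clones together with arm 13q. In A2058, clone c2 of the 1q loss stood at 26.7 and 25.2 CPM, and clone c1 at 31.8 and 37.2 CPM, against 43.6, 41.9, 28.3 and 45.3 CPM in WT. On the log2 scale c2 differed from the WT mean by -0.59 with 13q shifted by -0.37, and c1 by -0.19 with 13q at 0.00. The group's log2 fold change was -0.40 (SE 0.16, edgeR adjusted p = 0.0638). DESeq2 gave 0.0484, and edgeR gave 0.0284 with no filter on low counts, 0.0307 against WT replicates 1 and 2 alone, 0.00786 without WT replicate 3, 0.0257 without c1 replicate 2 and 0.014 without clone c1.

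The 8q-loss clones of A2058 showed the same side-by-side pattern. Clone c1 stood at 23.6 and 27.7 CPM (-0.61 from WT, with 13q shifted by -0.40) and c2 at 37.5 and 55.9 CPM (0.23, with 13q at 0.05). In MCF10A every 1q-loss library was below WT in RB1, at 89.1 to 136 CPM (median 120) against 142 and 139 CPM (log2 fold change -0.24, SE 0.12, edgeR adjusted p = 0.478). With hRas all 8 loss libraries were again below WT, at 109 to 142 CPM (median 122) against 152 and 160 CPM (log2 fold change -0.33, SE 0.10, edgeR adjusted p = 0.219). In those 8 sets of clone libraries 13q shifted by -0.11 to -0.20, beside RB1 differences of -0.10 to -0.46. In AGS the arm and RB1 went apart: 13q shifted by -0.40 in c1 and -0.37 in c4 while RB1 differed by 0.04 and -0.17, and 13q of the controls themselves ran from -0.32 to 0.23. In A2780 RB1 was even, at 53.5 to 62.2 CPM over all 10 libraries. What the arm contributes to RB1 was not tested.

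**Figure D5:**
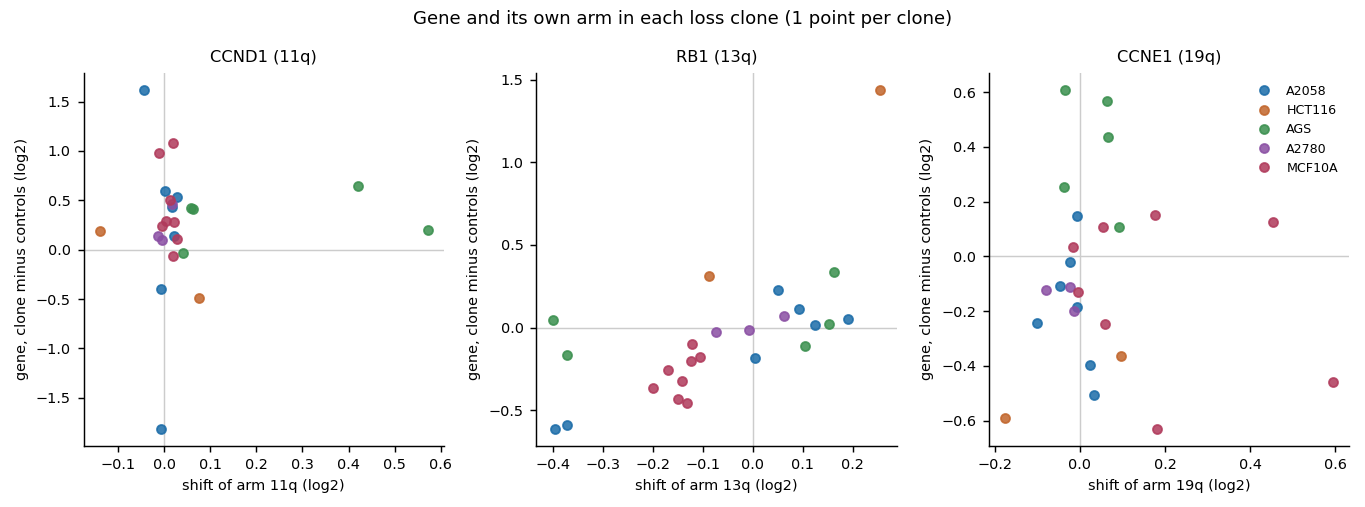
Difference of each loss clone from the mean of its controls (log2, vertical) for CCND1, RB1 and CCNE1, against the median shift of the other genes of the same arm (log2, horizontal). Each point is 1 clone, coloured by line. RB1 is lowest in the A2058 clones with 13q at -0.37 and -0.40, whereas CCND1 spans -1.81 to 1.62 in A2058 clones with 11q near 0.

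CCNE1, the activating cyclin of CDK2, lay below its controls in 1q loss of A2058 and A2780 and 8q loss of HCT116, and above them in 1q loss of AGS. In A2058 it fell with 1q loss, from 31.2, 34.6, 43.4 and 33.9 CPM in WT to 24.9, 29.0, 21.6 and 28.9 CPM, with no overlap (log2 fold change -0.46, SE 0.13, edgeR adjusted p = 0.0119, and 0.082 against WT replicates 1 and 2 alone). In A2780 the loss libraries stood at 45.1 to 50.4 CPM against 51.9 to 54.7 CPM in controls, all lower by a small step that was not called (log2 fold change -0.15, SE 0.05, edgeR adjusted p = 0.0827). In AGS the clones stood at 47.1 (c1), 36.9 (c4), 41.8 (c6), 45.8 (c7) and 33.3 CPM (c11), all above the 29.9, 30.5 and 32.4 CPM of controls and not called either (log2 fold change 0.41, SE 0.14, edgeR adjusted p = 0.0969). Without c11 the AGS adjusted p was 0.0384. Loss of 7p or 8q in A2058 left CCNE1 at 28.1 to 39.3 and 31.8 to 43.3 CPM, around WT.

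HCT116 had CCNE1 at 57.1 and 63.6 CPM in WT and at 40.2, 54.4, 39.9 and 40.0 CPM with 8q loss, all below WT (log2 fold change -0.47, SE 0.27, edgeR adjusted p = 1.00). In MCF10A CCNE1 overlapped WT, with an estimate of 0.04. Arm 19q, which holds CCNE1, was shifted by 0.45 in clone c4 and by 0.59 in the hRas clone numbered c4. CCNE1 stood at 41.2 and 43.0 CPM in c4 (0.13 from WT) and in hRas c4 at 35.4 and 35.7 CPM (-0.46 from hRas WT). The gene and its arm therefore differed in direction in the hRas-expressing c4 libraries.

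Expression of hRas was compared in MCF10A on both backgrounds. HRAS itself was 85.8 and 87.9 CPM in WT and 173 and 177 CPM with hRas (log2 fold change 1.01, edgeR adjusted p = 1.63e-05). Counts on HRAS do not separate the introduced form from the endogenous gene. Among the members, 0 of 8 were called in WT (edgeR; 1.62% of genes called), 4 had an unadjusted p under 0.05 and DESeq2 called 0 (2.12% of genes). In 1q-loss clones 0 of 7 were called (1.2% of genes), 3 had an unadjusted p under 0.05 and DESeq2 called 1, CCND1 (5.1% of genes). These comparisons share libraries with the MCF10A losses above.

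CCND2 in WT cells stood at 4.38 and 3.22 CPM without hRas and 1.48 and 1.57 CPM with it, without overlap (log2 fold change -1.32, SE 0.32, edgeR adjusted p = 0.0671). CCNE1 stood at 37.7 and 39.5 against 48.9 and 49.1 CPM (log2 fold change 0.35, SE 0.09, edgeR adjusted p = 0.099). CCND1 stood at 403 and 397 against 442 and 487 CPM, and CCND3 at 130 and 133 against 150 and 152 CPM (log2 fold changes 0.22 and 0.20, edgeR adjusted p = 0.22 and 0.218). RB1 was also above WT in both hRas libraries, and CDK6 and CDKN1B below it, so that of the 8 tested members only CDK4 overlapped, with 2 libraries on each side.

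In the 1q-loss clones CCND1 had the largest difference with hRas of the 7 members tested. Without hRas the 8 libraries ran from 381 to 573 CPM (median 477), and with hRas from 491 to 984 CPM (median 725). By clone, hRas libraries stood at 508 and 491 CPM (c1), 984 and 982 (c2), 568 and 559 (c3) and 948 and 882 (c4), with HRAS at 160 and 162, 409 and 363, 153 and 154, and 234 and 229 CPM in the same libraries. The 2 clones highest in CCND1 were the 2 highest in HRAS. Without hRas the clones numbered c2 and c4 were also highest in CCND1, with means of 489 and 565 CPM against 381 in c1 and 471 in c3. HRAS ran from 77.4 to 100 CPM in those 8 libraries, and no relation of the 2 genes was tested. All 4 hRas clones were above the CCND1 mean without hRas (log2 fold change 0.64, SE 0.17, edgeR adjusted p = 0.0628). Clone c1 and c3 differed from that mean by 0.08 and 0.26, c2 and c4 by 1.06 and 0.95. The adjusted p was 0.00991 with DESeq2, 0.000787 with clone number as a block (the labels do not say whether equal numbers mark 1 clone with and without hRas), 0.0322 and 0.0283 without c1 replicate 1 or 2 of the hRas libraries, 0.00537 without hRas clone c1 and 0.0304 without hRas clone c3. In the other alternatives it ran from 0.0509 to 0.743, the highest with the libraries of each clone summed and the next, 0.245, without hRas clone c2.

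With clone number as a block, CDKN1B (-0.22, edgeR adjusted p = 0.0225) and CDK6 (-0.35, adjusted p = 0.0464) were also called, in a fit that called 15.1% of genes. Without the block the edgeR adjusted p was 0.164 for CDKN1B and 0.373 for CDK6. Each was called in only 1 of 31 alternatives. CDK6 stood at 132 and 133 CPM in hRas clone c2, under every other MCF10A library, and at 339 and 290 CPM in hRas clone c4. The interaction of 1q loss and hRas was called for 0 of 8 members, with 0% of 16492 genes called by edgeR, 0.0032% by DESeq2 and no member under an unadjusted p of 0.05. The largest interaction estimate was that of CCND2, -2.10 (SE 1.25, edgeR adjusted p = 0.999).

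Other genes of the G1/S step were counted from a list of 23. In 1q loss of A2058 15 of 23 were called, where 49.6% of all genes were, 5 higher and 10 lower (25.3% and 24.3% of genes), with a median log2 fold change of -0.16 beside 0.00 over all genes. CDK2, the kinase partner of cyclin E, fell from 365 to 92.4 CPM (-1.99, SE 0.13, edgeR adjusted p = 8.46e-07), a gene singled out after its values were seen. CDKN1C, which encodes the inhibitor p57, had the largest decrease, from 133 to 10.9 CPM (-3.62, SE 0.30, edgeR adjusted p = 4.48e-06), and CDKN1A, which encodes p21, the largest increase, from 17.5 to 75.4 CPM (2.10, SE 0.32, edgeR adjusted p = 0.000298). A2780 had 9 of 23 called with 1q loss, against 11.8% of genes, 1 higher and 8 lower (5.95% and 5.88%), with a median of -0.14. CDKN1A was the higher one (1.76, SE 0.39, edgeR adjusted p = 0.0152), and E2F8, a repressor of the E2F family, had the largest decrease (-0.65, SE 0.17, edgeR adjusted p = 0.0316).

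The transcription factor genes E2F1 (-0.45 and -0.27), E2F2 (-1.14 and -0.45) and TFDP1 (-0.33 and -0.29), the cyclin gene CCNE2 (-0.80 and -0.40) and the phosphatase gene CDC25A (-0.67 and -0.45) were lower and called in 1q loss of both A2058 and A2780, and were named after their values were seen. E2F8 was called in both too, in opposite directions (0.77 in A2058). In A2058 TFDP1 kept its call in 8 of 19 alternatives (adjusted p up to 0.294) and E2F1 in 18, and in A2780 CCNE2 kept it in 8 of 22 and E2F8 in 12. TFDP1 lies on 13q, the arm shifted by -0.37 in A2058 clone c2.

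CDKN1A was the only listed gene called in 3 losses, and the third was a decrease. In HCT116 it fell from 707 and 501 CPM to 92.7, 83.9, 39.1 and 36.2 CPM with 8q loss (-3.26, SE 0.38, edgeR adjusted p = 0.00605), while the INK4 genes of the same libraries were not called. In AGS 0 of 23 were called by edgeR and 1 by DESeq2, with 3 at an unadjusted p under 0.05. In 8q loss of A2058 the called gene was E2F5 (-0.82, SE 0.11, edgeR adjusted p = 0.00625), which lies on 8q, and in 1q loss of MCF10A it was CKS1B (-0.74, SE 0.11, edgeR adjusted p = 0.00361), which lies on 1q. None of the 23 was called by edgeR in 7p loss of A2058, in MCF10A with hRas or with hRas in either background. DESeq2 called 0, 1, 0 and 0 there, and 2, 7, 3 and 3 had an unadjusted p under 0.05.

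Of 20 E2F target genes, 5 were called in 1q loss of A2058 (2 higher, 3 lower, median -0.09), a smaller share than the 49.6% of all genes called. In 1q loss of A2780 7 were called, all lower, against 11.8% of genes (median -0.20, 19 of 20 below 0). In 8q loss of A2058 1 was called (MCM4, on 8q, lower), against 2.03% of genes. With hRas in MCF10A WT 1 was called (MCM10, higher), against 1.62% of genes, and 11 had an unadjusted p under 0.05. There 19 of 20 were above 0 (median 0.18). In AGS 0 were called by edgeR and 2 by DESeq2 (7.55% and 11.6% of genes), with 6 at an unadjusted p under 0.05. All 20 of 20 were above 0 there, with a median of 0.43 beside 0.01 over all genes. In MCF10A with hRas 19 of 20 were below 0 with 1q loss (median -0.43). There edgeR and DESeq2 called 0 (0.214% and 2.54% of genes) and 3 had an unadjusted p under 0.05. None was called by either tool in 7p loss of A2058, in HCT116, in MCF10A with 1q loss or with hRas in 1q-loss clones. In these, 1, 0, 0 and 1 had an unadjusted p under 0.05, and edgeR called 0.908%, 0.14%, 2.04% and 1.2% of genes. Still, 19 of 20 were below 0 in MCF10A with 1q loss (median -0.18) and with hRas in 1q-loss clones (median -0.10). In 7p loss of A2058 12 were below 0, and in HCT116 16 were above 0. In the same AGS clones CCNE1 was above the controls and CDKN1B below them, and in A2780 CCNE1 was below.

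The genes most like 4 members in level over the 16 group means were named among 13059 protein-coding genes with a mean of at least 1 CPM. The measure was Pearson's r of log2 CPM, a description in which groups of 1 line share their background and A2780 its own annotation. For CCND1 they were DCUN1D3, RNF44 and TMEM217 (r = 0.946, 0.939 and 0.934), and for CCND2 GJA1, FIBIN and UGT3A2 (0.992, 0.977 and 0.975). For CDK6 they were ZNF100, ZNF544 and KIAA0391 (0.997, 0.991 and 0.990), and for CCNE1 KHK, COPS7B and KREMEN2 (0.900, 0.891 and 0.888). CCNE1, the gene that varied least between lines, thus had the loosest partners.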

How the data were processed

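RNA from 62 samples was sequenced after poly-T selection. Per the submitters' processing notes the tools were HISAT2 2.0.5 and featureCounts 1.5.0-p3 on hg38; the A2780 tables carry GRCh37 coordinates in their annotation columns. The strand setting and annotation release are not given in the sources used here. The deposited values are whole-number counts per gene as the authors made them, with no normalization. No column of another series was found (0 columns).

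The 10 members and the gene lists were chosen with earlier results of these data known. Every gene named as a member was fixed by name, and other listed genes were named when called with the largest change in a direction or called in the most losses. CDK2 and the genes called in 1q loss of both A2058 and A2780 were named outside that rule, after their values were seen. HRAS, MYC and the genes beside CDKN2A, together with the motifs, were picked with values known. Genes passing filterByExpr (minimum count 10, minimum total 15) were tested with edgeR 4.0.16 (TMM, quasi-likelihood) in R 4.3.3, with only the libraries of a comparison in its fit and Benjamini-Hochberg adjustment over all genes tested. SE is the log2 fold change divided by the root of F. log2 CPM used a prior count of 2. An arm's shift is the median, over its genes without the member, of log2 CPM less the control mean, minus the same median over other autosomal arms. The 3-count floor and the intervals (95%, exact) cover counting error only, since the counts carry no molecular identifiers. The p-values measure the spread between libraries, and libraries of 1 clone are not independent.

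Alternatives were DESeq2 1.42.0, RLE size factors, no filter, a mean of at least 1 CPM, summed clones, subsets of controls, a replicate or clone block, and leaving out each library or clone. Same-numbered A2058 WT and 1q-loss libraries deviated together (3 correlations, 0.104 to 0.268, all over 0.1), so those numbers were taken to pair the samples in the replicate block. The main fits were not paired. Other comparisons also held such correlations: 9 of 10 were over 0.1 in 1q loss of MCF10A (up to 0.262) and 6 of 10 in A2780 (up to 0.493). The scripts were tested on simulated counts. Replicate libraries differed by more than sampling noise (lowest chi-square per degree of freedom 3.634). Figures used Python 3.11.15 with matplotlib 3.10.9.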

Additional observations from a re-analysis of the deposited data

Results flagged for a closer look

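Of 78 groups and members of 4 to 10 libraries, 5 held a library far from the others, and chance flags about 1 in 20. In HCT116 with 8q loss these were c1 replicate 1 in CDKN2B, the highest at 6.77 CPM, and c1 replicate 2 in CCNE1, the highest at 54.4 CPM. In A2780 with 1q loss CDK4 was lowest in c5 replicate 2, at 126 CPM. In MCF10A with 1q loss c4 replicate 1 was the highest in CCND2, at 0.559 CPM, and the lowest in RB1, at 89.1 CPM.

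CCNE1 went opposite ways with 1q loss. Every AGS loss library lay above the controls (log2 fold change 0.41), and every loss library of A2058 (-0.46) and of A2780 (-0.15) lay below them. The difference between lines was not tested.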

How the results depend on the processing

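Over 93 pairs of a member and a comparison, 12 of them called, 1914 values under alternatives gave the same call in 1849, lost it in 43 and gained it in 22, and none reversed a direction with a call. The number of members called moved by over 1.5 times as follows. In 1q loss of A2058 it went from 6 to 2 against WT replicates 3 and 4 only, and from 4 to 6 over fits without 1 library or clone. In 8q loss of A2058 it was 0, but 1 with DESeq2 and 0 to 1 when leaving out a library or clone (1 without clone 2). In AGS it was 1, but 2 with DESeq2, 0 against WT only or TK+ only, and 0 to 3 when leaving out a library. In A2780 it was 3, but 0 with summed clones or TK+ only, and 1 to 3 when leaving out a library (1 without WT replicate 1). In MCF10A it was 1, but 0 with a mean of at least 1 CPM, where CCND2 is not tested, and 0 to 1 when leaving out a library (0 without WT replicate 1). In MCF10A with hRas it was 1, but 0 with summed clones, and 0 to 1 when leaving out a library or clone. It was also 0 with DESeq2 or a mean of at least 1 CPM, where CCND2 has no adjusted p. With hRas in WT it was 0, but 1 with no filter, and with hRas in 1q-loss clones it was 0, but 1 with DESeq2, 3 with clone as a block and 0 to 1 when leaving out a library or clone. Where no construction is named, the cause was not tested. With the replicate block, 1q loss of A2058 had a count of 6 and no member changed its call, and the count of calls was the same in each other comparison fitted except hRas in WT, where it was 2 (CCNE1 and CCND2) and 711 genes were called in place of 237; those libraries share only a number. In AGS no paired analysis was possible because the titles give no replicate numbers. Depth limits CCND2 in MCF10A and CDK6 and CDKN2B in A2780, which rest on few counts a library.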
